A study of Gallus gallus with 6 samples.

Results

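Toll-like receptors (TLRs) were followed in bursal cells through the 15 probe sets of the array whose single gene symbol is TLR followed by a digit. They stood for 8 genes, TLR1A, TLR2A, TLR3, TLR4, TLR5, TLR7, TLR15 and TLR21, among 38439 probe sets and 13009 named genes measured. Another 3 probe sets that are listed under several gene symbols, a TLR among them, were not counted as members. The bursa of Fabricius is the gut-associated organ in which birds form their B cells. Its cells were taken from 3-week-old line 0 chickens, and 2000000 cells were plated per culture on a monolayer of DF-1, a chicken embryo fibroblast line. They were kept overnight at 37 °C in 5% CO2 and medium with 4% serum, and were then washed off the adherent monolayer. In the SCA2 group (3 arrays) the monolayer expressed Flag-tagged stem cell antigen 2, and in the control group (3 arrays) it carried the vector alone. Both groups therefore differed in the DF-1 cells beneath the bursal cells. How many DF-1 cells came off with the bursal cells was not measured here. The titles call the replicates biological, while the protocol speaks of triplicate cultures without giving separate birds, so the p-values measure the spread between these arrays, which may in part be technical.

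TLRs are transmembrane proteins that bind microbial molecules through leucine-rich repeats and signal through a cytoplasmic TIR domain. Most of them recruit the adaptor MYD88 and IRAK kinases, which act through TRAF6 and the kinase TAK1 on NF-kB and MAP kinases to induce cytokine genes. TLR3 uses the adaptor TICAM1 instead. In the chicken, members of the TLR1 and TLR2 groups pair at the cell surface to recognize lipopeptides, TLR4 responds to lipopolysaccharide together with MD-2 (LY96), and TLR5 binds flagellin. TLR15, a receptor of birds and reptiles, responds to microbial proteases. TLR3, TLR7 and TLR21 work in endosomes, where they recognize double-stranded RNA, single-stranded RNA and unmethylated CpG DNA, and TLR21 takes the place of the mammalian receptor TLR9.

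The RNA of 5 TLR genes was measurable in both groups and, by their brightest probe sets, lower in cells recovered from the SCA2 monolayer. TLR15, TLR7, TLR1A and TLR2A were lower by 3.58-fold, 3.43-fold, 3.05-fold and 2.96-fold, and TLR21 by 1.68-fold. The groups overlapped for TLR2A, and another measurable probe set of TLR21 did not fall. TLR5 fell from just above the background mark to just below it, and TLR3 rose slightly around that mark. TLR4 stayed below the mark on all 6 arrays. The values of the brightest probe set of each gene are plotted by array.

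**Figure D1:**
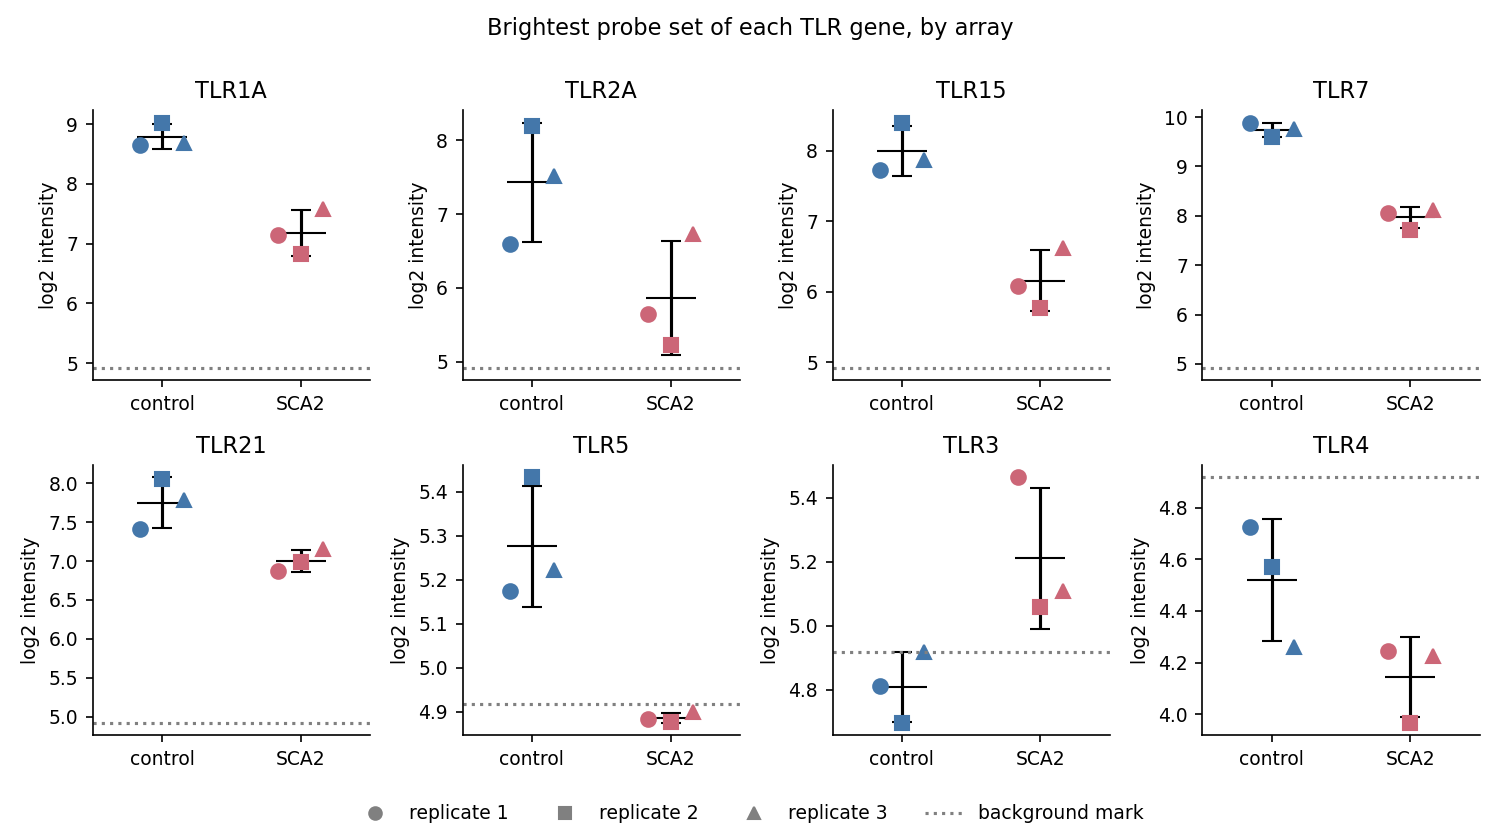
Log2 intensity of the brightest probe set of each of 8 TLR genes on the 3 control and 3 SCA2 arrays, with the mean and SD of each group as bars and the background mark (4.92) as a dotted line. Each panel has its own axis. For TLR1A, TLR15, TLR7 and TLR21 every SCA2 array lies below every control array and all arrays lie above the mark, while TLR2A overlaps between groups and TLR4 lies below the mark throughout.

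The values are log2 intensities, and a change is the SCA2 mean minus the control mean. The test was limma over all 38439 probe sets, and a probe set was called where p, adjusted over all of them by the Benjamini-Hochberg method, was under 0.05. The background mark of 4.92 is the 95th percentile of the means of 689 probe sets named after sequence records. The median of the means of all probe sets was 5.71. Levels are not compared between probe sets, since each binds its target with its own efficiency. By this test 6 of the 8 genes were lower and 1 was higher by their brightest probe set, and TLR4 was not called. Of all named genes, 20.8% were called lower and 26.2% higher in the same way. Called falls reached 2-fold or more in 4 of the 8 TLR genes and in 5.43% of all named genes. Over the 15 probe sets, 8 were lower and 1 was higher, against 17.1% and 18.2% of all probe sets. The median change was -1.16 over the 8 genes and -0.01 over all named genes. In 6 of the 8 genes all SCA2 arrays lay below all control arrays and in 1 above them, which held for 28.7% and 32.6% of all named genes.

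All 6 probe sets that were above the mark on every array belonged to TLR1A, TLR2A, TLR7, TLR15 and TLR21, and 5 of these were called lower. Among the 22239 probe sets of the whole array with that property, 22.1% were called lower and 27% higher. The remaining 9 TLR probe sets were at or below the mark on at least 1 array, and their changes are in the plot of all 15.

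**Figure D2:**
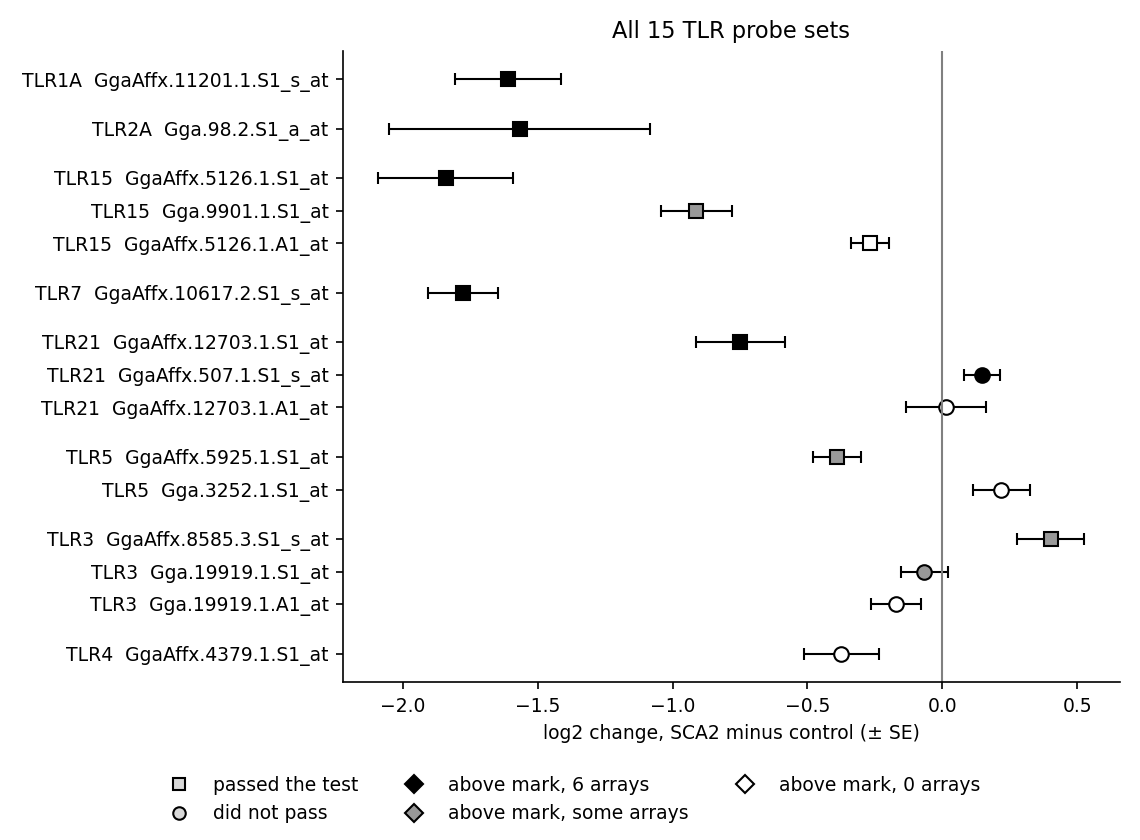
Log2 change (SCA2 minus control, with moderated SE) of all 15 TLR probe sets, grouped by gene. Squares passed the test, circles did not, and the fill gives whether the probe set was above the background mark on 6, some or 0 arrays. The changes below -1 belong to the brightest probe sets of TLR1A, TLR2A, TLR15 and TLR7.

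Among the surface receptors, TLR1A measured 8.66, 9.03 and 8.69 on control arrays 1, 2 and 3 and 7.14, 6.82 and 7.58 on SCA2 arrays 1, 2 and 3. Every SCA2 array was more than 1 log2 unit below the lowest control array. The change was -1.61 (SE 0.20, 3.05-fold; limma adjusted p = 7.7e-04), from 8.79 ± 0.21 to 7.18 ± 0.38 (SD, n = 3 each). Its 95% interval ran from -2.07 to -1.15. TLR1A has a close relative, TLR1B, and its probe set carries the array maker's suffix for probes shared between transcripts. A part of this signal could therefore be that of the relative. Probe sets with the same number in the array maker's code, listed under several symbols, fell less (-0.66) or did not pass the test (-0.16).

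TLR2A, the partner of TLR1 receptors, had the largest SD within groups of the 15 probe sets. It measured 6.59, 8.20 and 7.51 on control arrays 1, 2 and 3 and 5.65, 5.22 and 6.73 on SCA2 arrays 1, 2 and 3. SCA2 3 lay above control 1, so the groups overlapped. The group means were 7.43 ± 0.80 and 5.87 ± 0.78 (SD, n = 3 each), with a change of -1.57 (SE 0.48; limma adjusted p = 0.041; 95% interval -2.70 to -0.43). The exact two-sided permutation test gave p = 0.2, where 3 against 3 arrays cannot go below 0.1. Leaving out control 2, control 3, SCA2 1 or SCA2 2 ended the call (limma adjusted p = 0.111, 0.103, 0.117 and 0.113), while the change stayed between -2.00 and -1.19 with each array left out in turn. TLR2A also has a close relative in the chicken genome, and the signals of the pair on an array may not be separable.

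TLR15 measured 7.73, 8.40 and 7.86 on control arrays 1, 2 and 3 and 6.08, 5.77 and 6.62 on SCA2 arrays 1, 2 and 3. The groups were separated by more than 1 log2 unit. It changed by -1.84 (SE 0.25, 3.58-fold; limma adjusted p = 0.0012; 95% interval -2.43 to -1.26), from 8.00 ± 0.36 to 6.16 ± 0.43 (SD, n = 3 each). Both other probe sets of TLR15 were lower too. One went from 5.32 ± 0.14 to 4.40 ± 0.22, with every SCA2 array below the mark, and changed by -0.91 (SE 0.13; limma adjusted p = 0.0017). The other, which the array maker's code marks as antisense, lay below the mark on all arrays and changed by -0.27 (SE 0.07; adjusted p = 0.023). That call was lost without control 2, SCA2 1 or SCA2 3 (limma adjusted p = 0.055, 0.0893 and 0.061), after quantile normalization or cyclic loess (0.0624 and 0.0845), and when a robust fit was used together with a variance trend (0.0521). Of the 4 TLR genes with several probe sets, TLR15 was the one whose probe sets were all called, and in the same direction.

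TLR5 went from 5.17, 5.43 and 5.22 on the control arrays to 4.88, 4.88 and 4.90 on the SCA2 arrays. The 3 SCA2 values lay just below the mark and within 0.02 of each other, so the fall ended at levels not told apart from background. Whether background limits its size was not tested. The change was -0.39 (SE 0.09; limma adjusted p = 0.013), and the call was lost without control 2 and SCA2 3 together (adjusted p = 0.0822) or when the probe sets of the gene were averaged (adjusted p = 0.384). The other probe set of TLR5 was below the mark on all 6 arrays and did not pass the test (change 0.22, SE 0.11), though it did without SCA2 3 (change 0.32, limma adjusted p = 0.0461).

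TLR4 measured 4.73, 4.57 and 4.26 on the control arrays and 4.24, 3.97 and 4.22 on the SCA2 arrays, all below the mark. The change of -0.37 (SE 0.14; limma adjusted p = 0.0747; 95% interval -0.70 to -0.05) did not pass the test. It passed without control 3 (change -0.50, adjusted p = 0.0253). With no measured level in either group, no fold is given.

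Among the endosomal receptors, TLR7 had the smallest p of the family. It measured 9.88, 9.59 and 9.76 on control arrays 1, 2 and 3 and 8.05, 7.72 and 8.13 on SCA2 arrays 1, 2 and 3. The lowest control array was more than 1 log2 unit above the highest SCA2 array. The change was -1.78 (SE 0.13, 3.43-fold; limma adjusted p = 8.65e-05; 95% interval -2.08 to -1.47), from 9.74 ± 0.14 to 7.97 ± 0.21 (SD, n = 3 each). Its probe set carries the same suffix for shared probes as that of TLR1A, and what its probes share was not examined. TLR7 was called in all 17 alternatives, with changes between -1.93 and -1.66. TLR1A and TLR15 were also called in all 17, TLR1A with changes between -1.81 and -1.40. Averaging of probe sets, 1 of the alternatives, could not alter the changes of TLR7 and TLR1A, which have 1 probe set each. The brightest probe set of TLR15 changed by between -2.07 and -1.60, and the average over all probe sets of TLR15 by -1.01.

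TLR21 measured 7.41, 8.06 and 7.78 on control arrays 1, 2 and 3 and 6.87, 6.98 and 7.16 on SCA2 arrays 1, 2 and 3. All SCA2 arrays were below all control arrays, with a gap of less than the range of the control arrays. The change was -0.75 (SE 0.17, 1.68-fold; limma adjusted p = 0.011; 95% interval -1.14 to -0.36). The other sense probe set of TLR21, which has the suffix for shared probes, was above the mark on all arrays and did not fall. It went from 5.66 ± 0.03 to 5.81 ± 0.03 (SD, n = 3 each), with no overlap, and its change of 0.15 (SE 0.07; limma adjusted p = 0.139) did not pass the test. It was called higher after cyclic loess (0.22, limma adjusted p = 0.0463), against the lower call of the brightest one. The antisense probe set lay below the mark (change 0.01, SE 0.15). When the 3 probe sets were averaged the change of TLR21 was -0.20 (limma adjusted p = 0.0473), so its size depends on which probe set is read.

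TLR3 was called higher by its brightest probe set, which measured 4.81, 4.70 and 4.92 on the control arrays and 5.46, 5.06 and 5.11 on the SCA2 arrays. The control arrays did not exceed the mark and the SCA2 arrays lay little above it. The change was 0.40 (SE 0.12; limma adjusted p = 0.042). This probe set has the suffix for shared probes as well. The other probe sets of TLR3 did not pass the test and were dim. The other sense probe set changed by -0.07 (SE 0.09) and was above the mark on control 1 only. The antisense probe set lay below the mark on all arrays and changed by -0.17 (SE 0.09). Leaving out control 1, 2 or 3 ended the call on the brightest one (limma adjusted p = 0.0813, 0.113 and 0.0584), as did leaving out SCA2 1 (0.1) or SCA2 3 (0.068).

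The arrays of one group were ordered alike for several of these genes. In the control group, TLR1A, TLR2A, TLR15, TLR21 and TLR5 had their highest value on control 2. TLR7 was lowest on that array, at -0.15 relative to the control mean, where TLR2A stood at 0.76 and TLR15 at 0.40. Among the SCA2 arrays, SCA2 3 was the highest for TLR1A, TLR2A, TLR15, TLR7 and TLR21. Without control 2 and SCA2 3 together, TLR1A, TLR2A, TLR7, TLR15 and TLR21 were still called lower by the same test. That pair was chosen after its values were seen, so this is no independent check. Leaving it out lowered the SE of TLR2A from 0.48 to 0.33 and raised that of TLR7 from 0.13 to 0.15. The call of TLR2A ended without control 2 alone. These shared orders are descriptions of 6 arrays.

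Markers of most cell types listed were mainly lower with SCA2, as most of the receptors were, while those of fibroblasts were mainly higher. All measured B cell markers except BANK1 were above the background mark on all 6 arrays, and BANK1 was below it on the SCA2 arrays. Of the 15 markers, 13 were lower with SCA2 and 0 were higher, where 20.8% of all named genes were lower and 26.2% higher. The sum of their intensities was between 30773 and 32260 on the control arrays and between 10952 and 13366 on the SCA2 arrays. Such a sum gives most weight to the brightest probe sets, so it is compared between arrays and not between lists. Of 16 markers of macrophages and dendritic cells, cells known for surface TLRs, 12 were lower and 0 higher, with sums of 13699 to 18724 and 4560 to 7246. XCR1 was the marker of that list at or below the mark on all arrays. Of 7 markers of heterophils and other granulocytes, 6 were lower and 0 higher, with sums of 6500 to 16473 and 1813 to 3938. Less RNA per cell, fewer cells of a type and a larger share of RNA from DF-1 cells cannot be told apart in bulk RNA.

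The other lists stand beside the same background of 20.8% lower and 26.2% higher. T and NK cell markers were lower in 13 of 14 cases (sums of 9671 to 11201 and 3789 to 3880, with CD2 below the mark), epithelial markers in 9 of 13 (12394 to 22795 and 3860 to 8296, with CDHR5 below it). Thrombocyte and erythroid markers were lower in 6 of 9 cases (34217 to 37767 and 24818 to 25894, with GP9 below it). Fibroblast markers were higher in 15 of 19 cases and lower in 2, with sums of 42486 to 43573 on the control arrays and 70948 to 72194 on the SCA2 arrays. Median changes were -1.30 for B cells, -1.34 for macrophages and dendritic cells, -1.82 for heterophils and granulocytes, -1.33 for T and NK cells, -1.47 for epithelium, -0.53 for thrombocytes and erythroid cells and 1.24 for fibroblasts. The part of cell composition in the changes of the TLR genes was not tested.

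Within groups, the lists of macrophages, heterophils and epithelium were, like TLR1A, TLR2A and TLR15, highest on control 2 and on SCA2 3. The B cell list had its highest mean on the same arrays. Relative to the control mean, the macrophage list had a mean of 0.26 on control 2 and -0.21 on control 1, the heterophil list 0.46 and -0.58 and the epithelium list 0.33 and -0.34. The B cell list differed less between these arrays (0.03 and -0.04), as did the T and NK cell list (-0.06 and -0.01). TLR7 stood at -0.15 and 0.13 there. Whether any of these cell types carried the receptors was not tested.

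**Figure D3:**
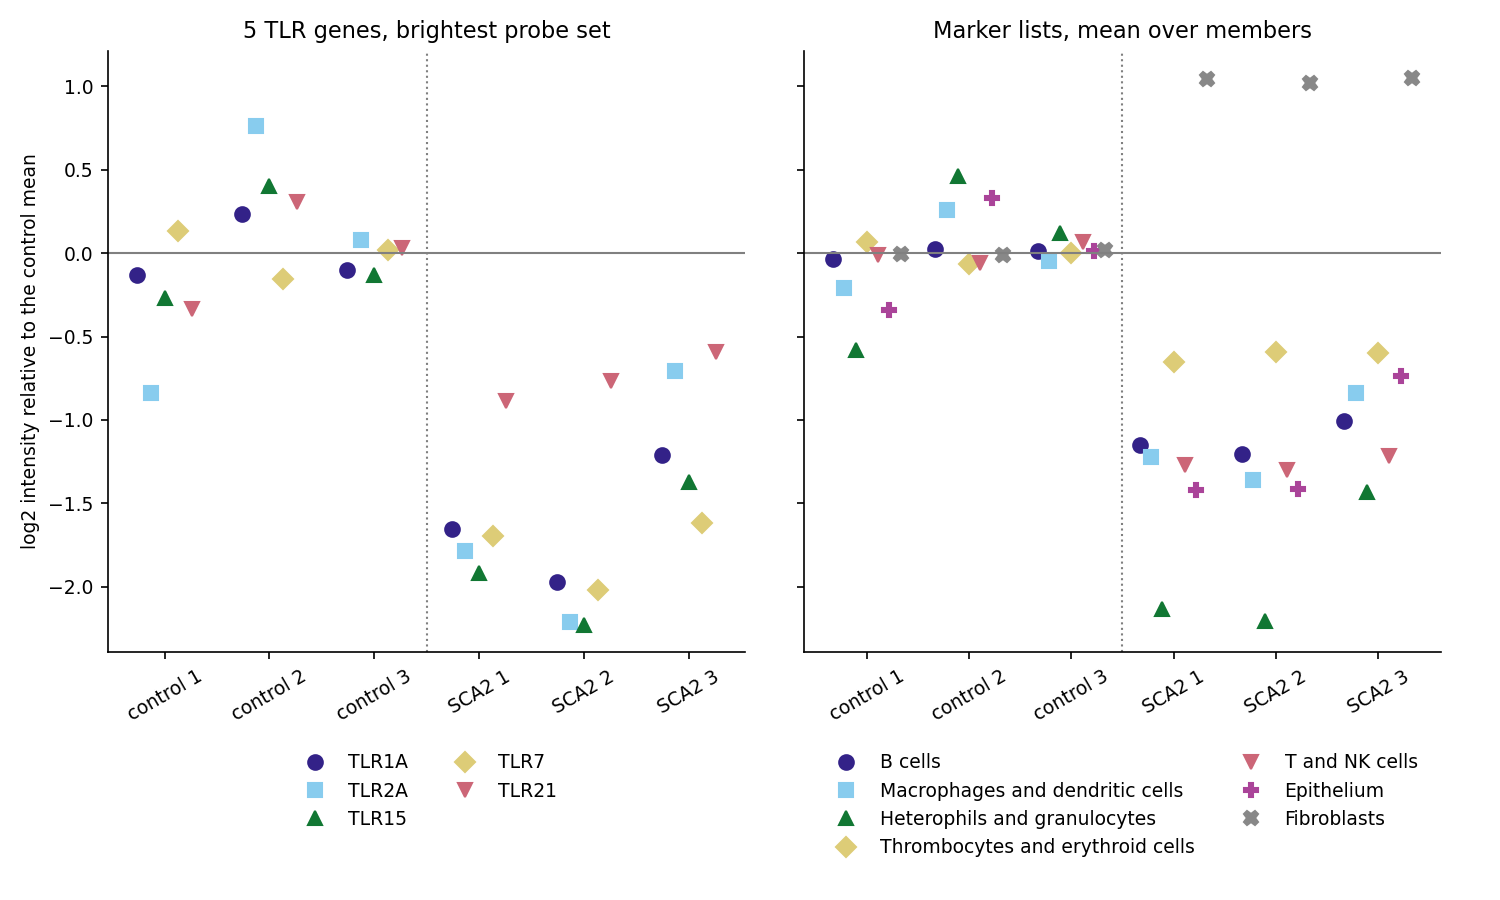
Log2 intensity relative to the control mean on each array, for the brightest probe sets of 5 TLR genes (left) and for the mean over the members of 7 marker lists (right). TLR2A and TLR15 are highest on control 2 (0.76 and 0.40) and TLR7 is lowest there (-0.15), and the heterophil, epithelium and macrophage lists also stand apart on control 2 (0.46, 0.33 and 0.26).

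The genes whose course over the 6 arrays lay closest to each called TLR gene were found among all named genes, by the mean absolute difference of log2 values after each gene was centred on its own mean. For TLR7 these were METTL24 (0.06) and GPD1L2 (0.06), for TLR1A LOC426820 (0.06) and TNFRSF6B (0.06), and for TLR15 RLN3 (0.05) and IGFBP7 (0.06). For TLR2A they were MGLL (0.07) and PDCD1LG2, a ligand of the PD-1 receptor (0.11). BHLHE23 (0.04) and PHLPP1 (0.04) were closest to TLR21, LOC772071 and LOC107050649 (0.02 each) to TLR5, and DNTTIP2 and SEC31B (0.04 each) to TLR3. Between members of the family the smallest difference was that of TLR1A and TLR15 (0.12), followed by TLR21 and TLR5 (0.20), TLR7 and TLR1A (0.21) and TLR15 and TLR2A (0.28). With 6 arrays in separate groups this measure mainly reflects the size of the change.

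The genes around the receptors were read from 10 lists by role, with 113 of 145 listed genes measured. Of these, 53 were lower, 12 were higher and 48 did not pass the test. The median change of the 113 genes was -0.26, against -0.01 over all named genes, of which 20.8% were lower and 26.2% higher. Called falls reached 2-fold or more in 25 of the 113 genes and in 5.43% of all named genes. The plot by role shows a median change of -1.53 for the genes that TLR signalling induces, and medians between -0.60 and -0.06 for the other 9 lists. The cell type lists that were mainly lower had medians from -1.82 to -0.53, so the induced targets do not stand apart from those.

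**Figure D4:**
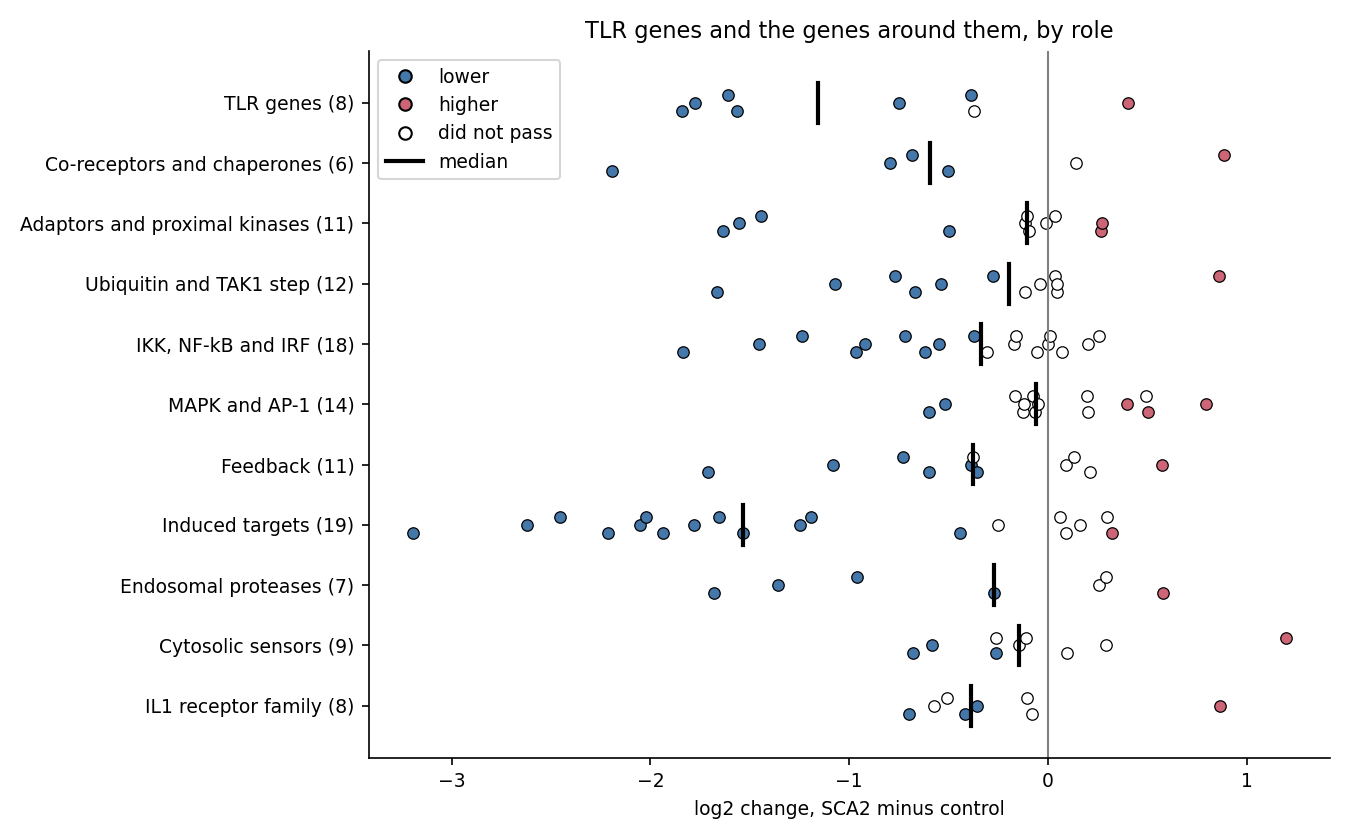
Log2 change (SCA2 minus control) of the brightest probe set of each gene, in rows for the TLR genes and 10 lists of genes around them, with the number of measured genes in brackets and the median as a bar. Blue points were called lower, red points higher, and open points did not pass the test. The median is -1.53 for induced targets and -1.16 for the TLR genes, and between -0.60 and -0.06 for the other lists.

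Among co-receptors and chaperones 4 of 6 measured genes were lower and 1 was higher. The shares over all named genes, 20.8% lower and 26.2% higher, stand beside this count and those of the lists below. LY96 (MD-2), the lipopolysaccharide-binding partner of TLR4, measured 10.95, 11.09 and 10.99 on the control arrays and 8.68, 8.75 and 9.01 on the SCA2 arrays. Its groups were more than 1 log2 unit apart, and the change was -2.19 (SE 0.11, 4.58-fold; limma adjusted p = 2.8e-05). LY96 was above the mark on all arrays, and TLR4 on none. LY86 (MD-1), the partner of CD180, changed by -0.80, and CD180, a TLR-like receptor of B cells, by -0.68 with all arrays below the mark. HSP90B1, the chaperone that folds most TLRs, rose by 0.88, from 11.94 ± 0.05 to 12.83 ± 0.02 (SD, n = 3 each; limma adjusted p = 1.2e-04). UNC93B1, which carries endosomal TLRs from the endoplasmic reticulum, did not pass the test (0.14, SE 0.11).

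Of 11 adaptors and proximal kinases, 4 were lower by their brightest probe set, 2 were higher and 5 did not pass. MYD88, whose probe sets disagree, is one of the 4. The lowest were the tyrosine kinases BTK (-1.63) and SYK (-1.44) and the PI3-kinase adaptor PIK3AP1 (-1.55), which also serve the B cell receptor, and 2 of them, BTK and PIK3AP1, are in the B cell list above. MYD88, the common adaptor, changed by -0.50 by its brightest probe set (SE 0.08; limma adjusted p = 0.0028), from 10.86 ± 0.09 to 10.36 ± 0.07 (SD, n = 3 each). Its other probe set went the opposite way, from 6.35 ± 0.40 to 7.50 ± 0.49 (change 1.15, SE 0.28; adjusted p = 0.0165), so no direction is given for MYD88. TIRAP, the bridging adaptor, and IRAK4, the first kinase of the complex, rose by 0.27 each, and both calls were lost after quantile or cyclic loess normalization. They were also lost without control 3 (limma adjusted p = 0.0817 for TIRAP and 0.0734 for IRAK4) and without SCA2 1 (0.0785 and 0.0522), SCA2 2 (0.0804 and 0.0704) or SCA2 3 (0.0593 and 0.0879). TICAM1, the adaptor of TLR3, did not pass the test (-0.11).

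At the ubiquitin and TAK1 step 6 of 12 genes were lower and 1 was higher. The ligase adaptors TRAF5 (-1.67), TRAF3 (-1.07) and TRAF2 (-0.67) and the ubiquitin ligase PELI3 (-0.77) fell, and PELI2 rose by 0.86 from a control mean below the mark. TRAF6, the ligase on which MYD88 signalling converges and which was singled out after its value was seen, fell by 0.54. MAP3K7, which encodes TAK1, did not pass the test (-0.04).

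Of 18 genes of IKK, NF-kB and interferon regulatory factors, whose changes ran from -1.84 to 0.26, 9 were lower and 0 were higher. Beside NFKBIZ (-1.45) and IRF1 (-1.24) they included REL, the NF-kB subunit of lymphocytes (-0.92), and TBK1, a kinase of interferon induction (-0.72). IKBKB and CHUK, the catalytic IKK kinases, did not pass the test (-0.16 and -0.06). Of 14 genes of MAP kinases and AP-1, 3 were higher (MAPK11 by 0.80, MAPK8 by 0.50 and JUN by 0.40). ATF3 (-0.60) and MAPK10 (-0.52) were lower. Neither count exceeds the share over all named genes (26.2% higher, 20.8% lower), so this list does not stand out from them. The call of MAPK8 was lost without control 2, control 3, SCA2 1 or SCA2 3 (limma adjusted p = 0.0717, 0.0832, 0.0898 and 0.0886). Among feedback genes 6 of 11 were lower and 1 was higher. TNFAIP3, the A20 deubiquitinase that restrains NF-kB, changed by -1.71 and the phosphatase gene DUSP1 by -0.73, while RNF216, a ubiquitin ligase that acts on TLRs in mammals, rose by 0.57.

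Of 19 induced targets 13 were lower and 1 was higher, with a median of -1.53. Changes in the list ran from -3.20, the lowest change over all probe sets, to 0.32. The 4 members with the smallest p were the chemokine genes CCL20 (-1.78) and IL8L1 (-2.46) and the cytokine genes IL18 (-1.19) and IFNG (-2.02). IL1B, a classic product of TLR signalling singled out after its values were seen, measured 8.16, 9.88 and 8.98 on the control arrays and 6.37, 6.35 and 7.65 on the SCA2 arrays. It was highest on control 2 and on SCA2 3, as TLR2A was, and changed by -2.21 (SE 0.49; limma adjusted p = 0.011). The member called higher, the chemokine gene CCL4 (0.32), had another probe set that was called lower (-0.66), and its call was lost without SCA2 1, SCA2 2 or SCA2 3 (limma adjusted p = 0.058, 0.0591 and 0.0547). Of the induced targets, CD40 is also in the B cell list above and CD83 in the macrophage list. Of 7 endosomal proteases, enzymes of the compartment in which endosomal TLRs are cut into active form, 4 were lower and 1 was higher. CTSS, cathepsin S, changed by -1.68, CTSB by -1.36 and CTSD by -0.96, and CTSK rose by 0.58. CTSS is also in the macrophage list above.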

How the data were processed

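The data are 6 Affymetrix chicken arrays, hybridised with biotin-labelled cRNA from 10 µg of total RNA. The deposited values are linear intensities, made by the authors with RMA per the submitters' processing notes (its version is not stated there), and log2 was taken. RMA brings the arrays' distributions close to each other, so changes are relative to the other genes. The deposited values were not fully equal: quantile normalization of them moved the median change over all probe sets from -0.049 to -0.015. Of 38535 probe sets, 96 array controls were left out. Platform annotation, with symbols updated by RefSeq gene identifier, named 27168 probe sets by 1 symbol, left 11094 unnamed and gave 177 several symbols. A gene is given by the probe set of highest mean over all arrays. Median intensities per array were 51.2 to 53.1, and the number of arrays limits precision.

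The test was limma 3.58.1 (R 4.3.3; lmFit, eBayes, Benjamini-Hochberg adjustment over all 38439 probe sets, threshold 0.05), tested on simulated data. Figures used matplotlib 3.10.9. Named genes were every TLR gene, in each list the 4 called members of smallest p, up to 2 called members against the majority of a list, and the 2 nearest genes by profile. UNC93B1, TICAM1, MAP3K7, IKBKB and CHUK, central to the pathway, and MAVS, the adaptor of IFIH1, were not called. They were added after their values were seen. Members and lists were chosen with earlier results of these data known. Alternatives covered the replicate block, normalization, filters on dim probe sets, variance models, a threshold of 0.01, averaging of probe sets and left-out arrays. Leaving out control 2 and SCA2 3 together was chosen after seeing the data. Promoter and protein sequences were planned as descriptions and were not used here. Batch is not in the labels, and one that ran along with the monolayer could not be told apart from it.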

Additional observations from a re-analysis of the deposited data

How the results depend on the processing

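The falls of TLR1A, TLR7 and TLR15 were called in all 17 alternatives. TLR1A and TLR7 have 1 probe set each, so averaging of probe sets could not alter their changes, and the filters on dim probe sets left them as they were. A filter at the median of probe set means kept 6 TLR probe sets, of which 5 were lower and 0 higher. Of all 19219 probe sets that it kept, 5052 were lower and 6354 higher. The filter removed every probe set of TLR3, the gene called higher, so it could not test that call. A threshold of 0.01 left 4 lower and 0 higher (3 genes lower, 0 higher), where 3702 of all 38439 probe sets were lower and 4679 higher. TLR2A (-1.57), TLR21 (-0.75), TLR5 (-0.39) and TLR3 (0.40) did not pass it. Cyclic loess gave 2 higher probe sets, the added one being of TLR21. The higher gene count was 0 with array weights, averaged probe sets, or without control 2 and SCA2 3, and in the last case, as with array weights, 0 probe sets were higher. TLR2A lost its call with a robust fit and variance trend in 1 fit (-1.57) or array weights (-1.24), TLR3 with array weights (0.34), averaged probe sets (0.055) or both arrays left out (0.40), and TLR5 with averaged probe sets (-0.085) or both arrays left out (-0.32). With single arrays left out, the lower TLR probe sets numbered 6 to 8 and the higher 0 to 1, the genes 5 to 6 and 0 to 1. Changes ranged from -2.00 to -1.19 for TLR2A, from 0.28 to 0.48 for TLR3, and from -0.50 to -0.27 for TLR4. Over all probe sets, 3897 were lower and 4544 higher without both arrays. Role genes called higher numbered 7 at 0.01 and 7 without both arrays. Dim probe sets reversed: that of TLR3 (-0.07 as reported) stood at 0.023 after cyclic loess and 0.0029 after quantile normalization, and the antisense one of TLR21 (0.01) at -0.061 with array weights and between -0.11 and 0.16 with single arrays left out. The causes of these shifts were not tested.

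With the replicate number as a block, 8 TLR probe sets were lower and 1 higher, as without it, and 6913 of all probe sets were lower and 7618 higher. Deviations of same-numbered arrays correlated at 0.41, 0.12 and 0.04, and not every array correlated best with its own number, so the numbers were not taken as pairs. Without detection calls, levels near the mark limit what TLR3, TLR4 and TLR5 can show.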

Other observations

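Among innate sensors other than the TLRs, calls went both ways, beside 20.8% of all named genes lower and 26.2% higher. Of 9 measured cytosolic sensors and their partners, 3 were lower and 1 was higher in limma with Benjamini-Hochberg adjustment, with a median change of -0.15. The lower count was 1 without control 1, SCA2 2 or SCA2 3, so it does not stand clear of that background. CGAS, a sensor of cytosolic DNA, changed by -0.68, IFIH1 (MDA5), a sensor of double-stranded RNA, by -0.58 and the signalling adaptor gene BCL10 by -0.26. NOD1, a sensor of bacterial peptidoglycan fragments, rose by 1.20 (limma adjusted p = 0.010), and both of its probe sets were higher. The call of NOD1 was lost at a threshold of 0.01 and without control 2 and SCA2 3 together (limma adjusted p = 0.091). The call of BCL10 was lost with any 1 array left out (limma adjusted p from 0.0576 to 0.128), and that of IFIH1 without control 1, control 3, SCA2 2 or SCA2 3 (0.104, 0.0964, 0.102 and 0.0791). MAVS, the adaptor of IFIH1, did not pass the test (0.29).

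In the interleukin 1 receptor family, the signalling members carry an intracellular TIR domain as TLRs do. Of 8 measured genes 3 were lower and 1 was higher, with a median of -0.39, against the same background. The accessory chain gene IL1RAP rose by 0.87, while the decoy receptor gene IL1R2 (-0.70), the signalling receptor gene IL1R1 (-0.42) and IL1RL2 (-0.36, below the background mark) fell. The 3 lower calls became 1 when arrays were centred on their medians, after cyclic loess, or without control 3 or any 1 SCA2 array, and 0 at an adjusted p of 0.01. Those of IL1R1 and IL1RL2 were both lost without any 1 of control 2, control 3 and the 3 SCA2 arrays. Their limma adjusted p ran from 0.0522 to 0.13 and from 0.0601 to 0.126. The call of IL1R2 was lost without control 2 and SCA2 3 together (limma adjusted p = 0.0588).

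The 3 probe sets listed under several symbols, a TLR among them, name no single gene. One of them went from 9.76, 9.92 and 9.79 on the control arrays to 8.34, 8.25 and 8.52 on the SCA2 arrays (change -1.46; limma adjusted p = 6.0e-05). Another changed by -0.66 (limma adjusted p = 0.025), and the remaining one overlapped between groups and did not pass (-0.16). These last carry the same number in the array maker's code as the probe set of TLR1A, which changed by -1.61.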
